A study of Homo sapiens with 6 samples.

Results

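The genes described here are 49 chromatin regulators that act outside the Polycomb complexes. Of them, 9 were listed as trithorax-type histone H3 lysine 4 (H3K4) methyltransferases or their subunits, and 5 as histone demethylases. The rest are 20 subunits of SWI/SNF remodelling complexes, 7 CHD remodellers, 4 histone acetyltransferases and 4 histone deacetylases. The 49 were taken by gene symbol from a list of complexes and enzyme families, with no threshold on their values. All 49 were found among the 26485 symbols of the count tables. RNA came from AF22, an established human neural stem cell line derived from induced pluripotent stem cells. In 3 libraries, labelled with the genotype BMI1/COMMD3-BMI1 knockdown, BMI1 and the COMMD3-BMI1 read-through transcript had been targeted. The other 3 libraries, labelled WT, came from AF22 carrying a control short hairpin RNA (shControl). A single line was used, no further allele, drug, time or age is given, and nothing in the labels says that the 3 libraries of a group came from separate cultures, so p-values cover only the spread from library to library, which may be technical in origin. The labels number the libraries 1 to 3 in each group, and the question asked of each gene is how its messenger RNA level in the knockdown library differed from that in the control library of the same number.

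BMI1 belongs to Polycomb repressive complex 1, which keeps genes silent, and the trithorax group was first defined in Drosophila by genes that oppose Polycomb silencing. KMT2A to KMT2D and the SETD1 enzymes methylate H3K4 at promoters and enhancers together with shared core subunits such as ASH2L and WDR5. KDM5 enzymes remove that mark. SWI/SNF complexes use ATP to slide or evict nucleosomes, and during neuronal differentiation several of their subunits are exchanged for paralogs, among them ACTL6A for ACTL6B, DPF2 and PHF10 for DPF1 and DPF3, and SS18 for SS18L1. CHD remodellers are a further ATPase family, of which CHD3 and CHD4 are the motors of the NuRD complex together with HDAC1 and HDAC2.

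The libraries held 4962745 to 9640349 counts in knockdown cells and 5496683 to 6870122 in control cells. BMI1 itself reached 39.9, 21.5 and 26.2 CPM (a gene's count relative to its library's scaled total) in knockdown libraries 1 to 3, against 85.1, 90.0 and 87.4 CPM in control libraries 1 to 3. The separate row for COMMD3-BMI1 is listed at 0 counts in all 6 libraries, and how reads shared by BMI1 and the read-through transcript were counted is not given, so the BMI1 value may hold both. Knockdown library 2 had the lowest BMI1. It stood apart from the other 5 libraries on the first principal component, at 40.2 against −25.5 to 11.5. The chi-square per gene on raw counts was 2.74 between knockdown library 1 and control library 1. Within a group it was at least 3.19 for any pair of libraries. This measure grows with depth, and both libraries numbered 1 had the fewest counts, so it does not rank how alike libraries were. Neural stem cell markers, SOX2 and NES (nestin) among them, summed to 3127 to 4273 CPM in knockdown and 3665 to 3983 CPM in control libraries. The largest part was VIM, at a mean of 2133 CPM in knockdown and 1899 CPM in control cells. Of the 12, 11 were above the low-count filter, and HES5 had no count in any library. In the fit with library number as a block, described next, 9 of the 11 log2 fold changes were below 0 and 2 above. Their median was −0.20, the median in pair 2 was −0.42, and 0 of the 11 were called. Neuron markers summed to 919 to 1181 CPM in knockdown and 1126 to 1283 CPM in control libraries, with RBFOX3 and ELAVL4 at 0 throughout. Mesenchymal markers summed to 1608 to 2266 CPM in knockdown and 1284 to 1570 CPM in control libraries, without overlap. Most of the sum was COL3A1, at a mean of 1393 CPM in knockdown and 1057 CPM in control cells. Taken singly, 0 of the 8 separated the groups, where 20.5% of all genes did. All 8 were tested, all 8 fitted values were above 0, and COL3A1 was called higher by the test described next. Astroglia markers summed to 604 to 659 CPM in knockdown and 549 to 593 CPM in control libraries, also without overlap; 4 of 8 were tested, GJA1 was called higher, and GFAP and ALDH1L1 had at most 10 counts in all libraries together. Oligodendrocyte-lineage markers summed to 185 to 203.7 CPM in knockdown and 203.8 to 234 CPM in control libraries, with SOX10 at 0. These sums did not overlap either, by a narrow margin, and were lower in the knockdown libraries. Pluripotency markers summed to 482 to 600.3 CPM in knockdown and 408 to 561 CPM in control libraries, with NANOG and TDGF1 at 0. None of the oligodendrocyte-lineage or pluripotency markers was called. Cell-cycle genes summed to 2444 to 4491 CPM in knockdown and 4437 to 5183 CPM in control libraries, lowest in knockdown library 2, and 21 of 22 were called lower by the same test. The part of these shifts in the values of single chromatin genes was not tested.

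Of the 49 regulators, 48 passed the low-count filter that left 12937 genes, and the exception was ACTL6B. In edgeR's quasi-likelihood test without library numbers, 0 of 48 passed a Benjamini-Hochberg adjusted p of 0.05, as did 0 of all genes tested (0.0%). At an unadjusted p of 0.05, 4 of 48 passed, against 14.4% of all genes; limma voom called 0 and DESeq2 0 of the 48, while DESeq2 called 1.10% of all genes. Deviations from the group mean were shared by libraries of the same number, with correlations of 0.563, 0.467 and 0.535 over genes, and the fit with library number as a block called 4 of 48 regulators, 8.33%, against 10.0% of all genes tested. BMI1 itself fell by 1.64 on the log2 scale (SE 0.155, adjusted p = 0.00836 in edgeR with the block; adjusted p = 0.163 without it). Of the 4, SMARCD2, KDM5B and HDAC9 rose, where 4.63% of all genes did, and DPF1 fell, where 5.39% of all genes did. DESeq2 with the same block called DPF1 only, against 4.56% of all genes.

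**Figure D1:**
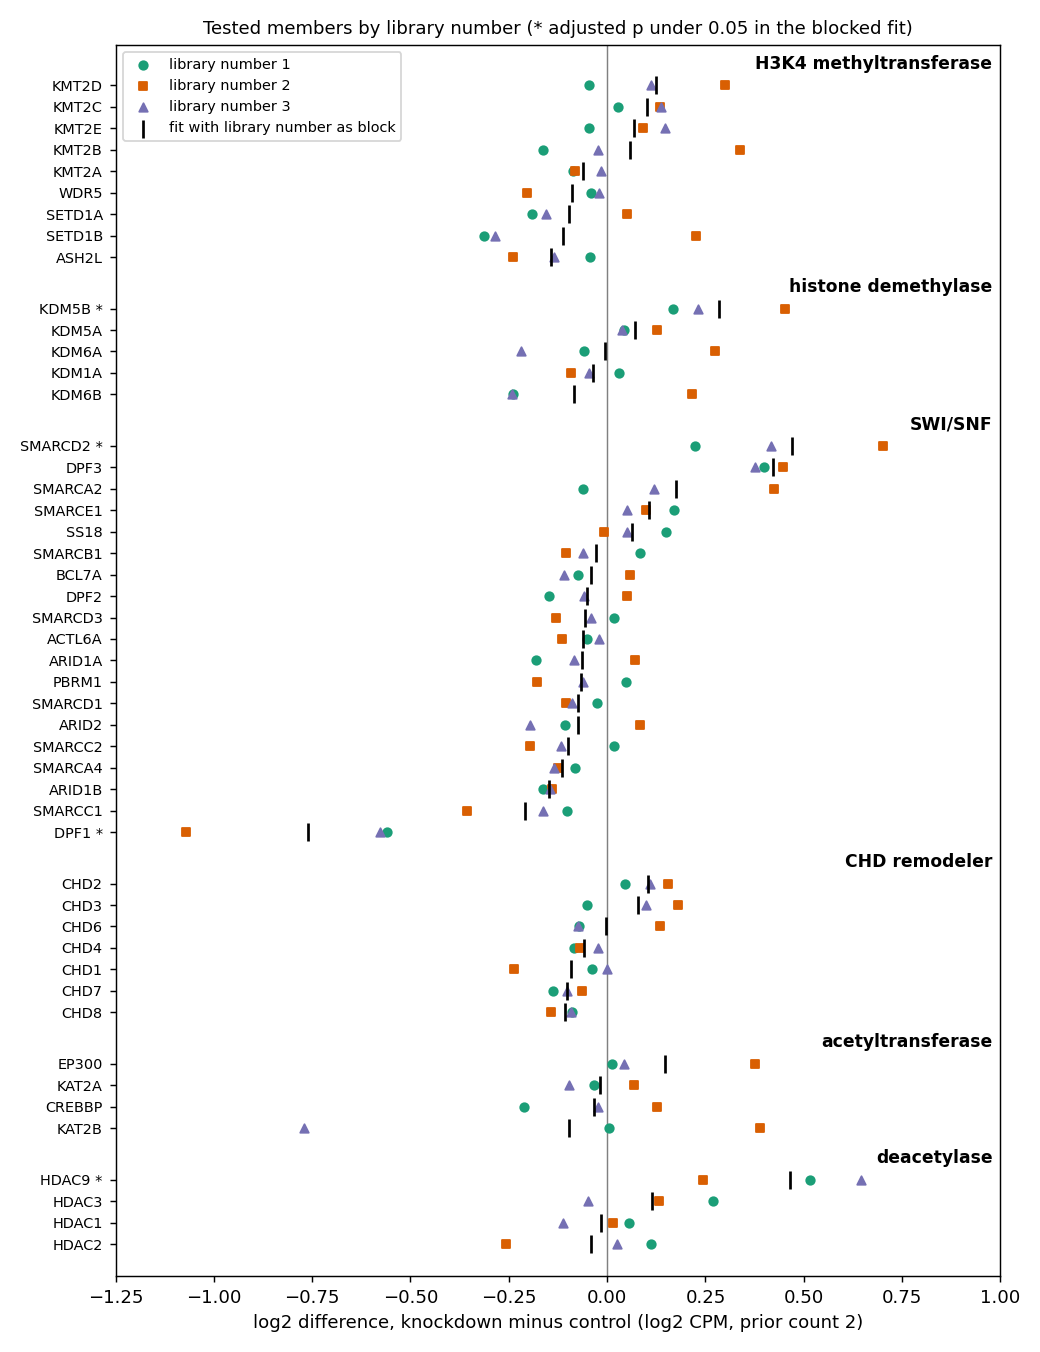
Log2 difference, knockdown minus control, for each of the 48 tested regulators (rows, by complex) in the libraries numbered 1 (circles), 2 (squares) and 3 (triangles), with the value of the fit with library number as a block (black bars) and a star where its adjusted p was under 0.05. Most symbols lie within 0.25 log2 units of 0, DPF1 lies to the left in all 3 pairs, and SMARCD2, KDM5B and HDAC9 lie to the right.

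Most of the 48 regulators differed little between knockdown and control cells. In the fit with library number as a block, 42 of 48 had a log2 fold change under 0.2 in size, and the values ran from −0.76 to 0.47. In 33 of 48, all 3 same-numbered pairs differed by less than 0.25 log2 units, against 38.1% of all genes tested. The median size of the log2 fold change was 0.086 over the 48 and 0.151 over all genes, and the median CPM was 129 over the 48 and 43.3 over all genes. The median log2 fold change was −0.04 over the 48 and −0.0045 over all genes; without library numbers it was −0.04 as well, and 0.019 when control library 1 was left out. Pair by pair, the median over the 48 was −0.04, 0.06 and −0.05 in pairs 1, 2 and 3. The knockdown value was higher in all 3 pairs for 9 of 48 (25.6% of all genes) and lower in all 3 for 13 of 48 (26.7% of all genes), and it changed sign between pairs for the other 26. The knockdown and control libraries did not overlap for KDM5B, CHD2, EP300 and HDAC9, which were higher in all knockdown libraries (9.28% of all genes), nor for DPF1 and WDR5, which were lower in all of them (11.2% of all genes).

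DPF1 had the largest fold change of the 48. It encodes a double PHD finger subunit of SWI/SNF that is known from the mouse as part of the neuronal form of the complex, and it lies on chr19:38211006-38229714, minus strand (GRCh38, GENCODE 29). It had 12.6, 10.8 and 11.2 CPM in knockdown libraries 1, 2 and 3, against 18.7, 23.0 and 16.9 CPM in control libraries 1, 2 and 3. All 3 knockdown libraries lay below all 3 control libraries, and the gap was widest in pair 2, where the control library was the highest of the 6 and the knockdown library the lowest. The mean was 11.5 ± 0.946 CPM in knockdown and 19.6 ± 3.15 CPM in control cells (SD, n = 3 each), on 61 to 107 counts per knockdown library and 102 to 149 per control library. In edgeR with the block its log2 fold change was −0.76 (SE 0.150, adjusted p = 0.0266), or 0.59-fold, and without the block −0.77 (SE 0.169, adjusted p = 0.258). DPF1 remained called when any one pair of libraries was left out, with log2 fold changes of −0.83, −0.58 and −0.85 without pairs 1, 2 and 3.

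SMARCD2, which encodes the BAF60B subunit that links SWI/SNF to transcription factors, rose. It lies on chr17:63832081-63843065, minus strand. It had 43.6, 76.6 and 55.7 CPM in knockdown libraries 1, 2 and 3, against 37.3, 47.0 and 41.7 CPM in control libraries 1, 2 and 3. Each knockdown library was above the control library of its own number, but knockdown library 1 lay below control library 2, so the groups overlapped. The mean was 58.7 ± 16.7 CPM in knockdown and 42.0 ± 4.85 CPM in control cells (SD, n = 3 each). The log2 fold change was 0.47 (SE 0.102, adjusted p = 0.0309 in edgeR with the block), or 1.38-fold, and the call held without each pair in turn, at 0.57, 0.34 and 0.49 without pairs 1, 2 and 3. Without library numbers it was 0.49 (adjusted p = 0.311 in edgeR), and 0.25 when knockdown library 2 was left out.

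KDM5B, an H3K4 demethylase that removes the mark set by the KMT2 and SETD1 enzymes, rose by less. It lies on chr1:202724495-202809470, minus strand. It had 289, 307 and 313 CPM in knockdown libraries 1, 2 and 3, against 257, 224 and 266 CPM in control libraries 1, 2 and 3. All knockdown libraries were above all control libraries, and the difference was largest in pair 2, where the control library was the lowest of the 6. The mean was 302.9 ± 12.5 CPM in knockdown and 249 ± 22.2 CPM in control cells (SD, n = 3 each), a log2 fold change of 0.29 (SE 0.0727, adjusted p = 0.0441 in edgeR with the block) or 1.22-fold. Its adjusted p was 0.0601 without pair 1, 0.137 without pair 3, 0.0529 with total-count scaling and 0.105 in DESeq2 with the block, and 0.274 in edgeR without library numbers.

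HDAC9, a class IIa deacetylase best known as a corepressor of MEF2 transcription factors, rose as well. It lies on chr7:18086949-19002416, plus strand. It had 38.5, 40.7 and 37.6 CPM in knockdown libraries 1, 2 and 3, against 26.8, 34.3 and 23.9 CPM in control libraries 1, 2 and 3. The knockdown libraries lay close together and above every control library, and here pair 2 showed the smallest difference. The mean was 38.9 ± 1.59 CPM in knockdown and 28.4 ± 5.35 CPM in control cells (SD, n = 3 each), a log2 fold change of 0.47 (SE 0.107, adjusted p = 0.0346 in edgeR with the block) or 1.38-fold. The adjusted p was 0.0694 without pair 1, 0.179 without pair 3 and 0.109 in DESeq2 with the block, and 0.265 in edgeR without library numbers. By GENCODE 29 exons, none of DPF1, SMARCD2, KDM5B and HDAC9 shares bases with another gene of the count tables. Genes outside the count tables were not checked.

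**Figure D2:**
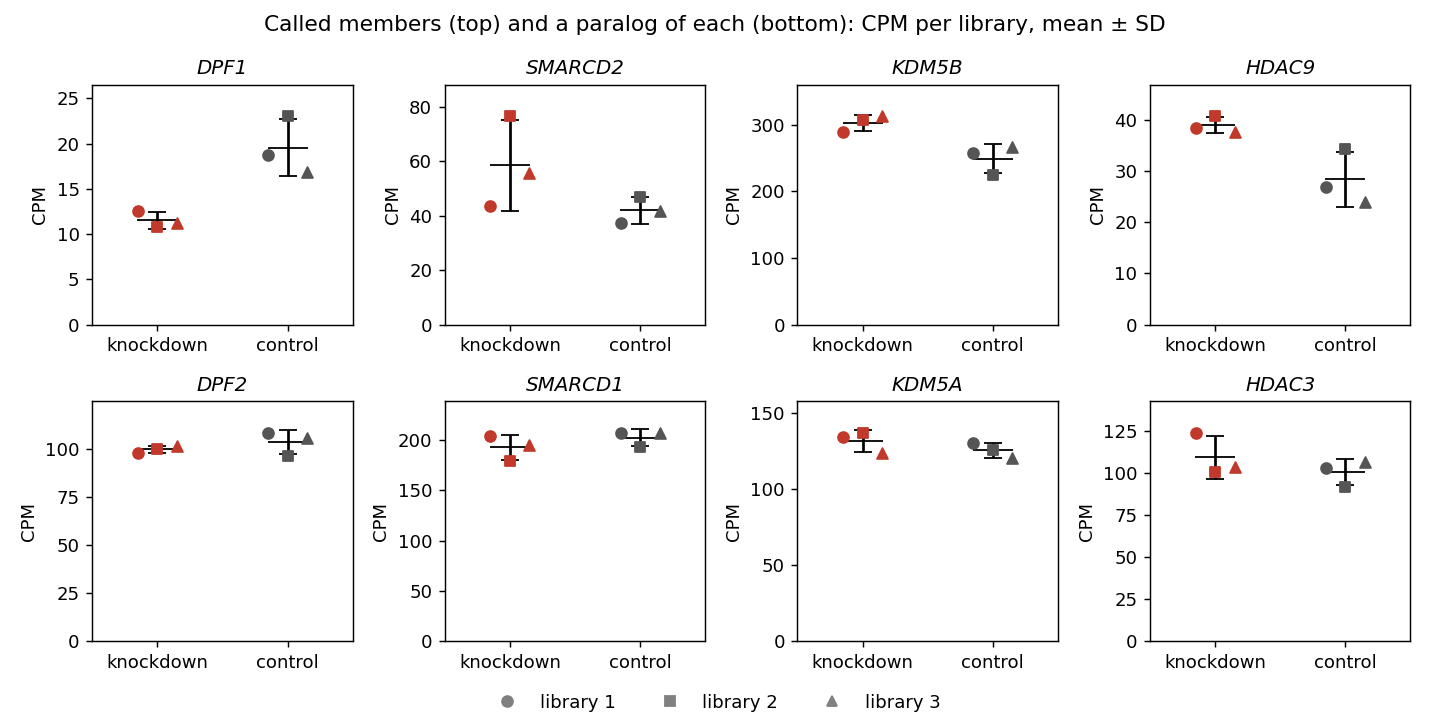
CPM (linear axis from 0) in each knockdown (red) and control (grey) library for the 4 called regulators (top row) and for a paralog or family member of each (bottom row); symbols give the library number and black lines the mean ± SD of 3 libraries. DPF1 was lower in every knockdown library and KDM5B and HDAC9 higher in every one, SMARCD2 overlapped between groups, and DPF2, SMARCD1, KDM5A and HDAC3 overlapped between groups.

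The stretch just upstream of the transcription start of these 4 genes, and of DPF2, is shown for the density of CG dinucleotides, since H3K4 methyltransferases and Polycomb complexes are both known to be directed to CG-rich promoters. Each line gives the 250 bases before a RefSeq start (GRCh38.p14), 5′ to 3′ on the gene's strand, with every CG in capitals; the windows are DPF1 chr19:38229696-38229945 (minus strand), SMARCD2 chr17:63842686-63842935 (minus), KDM5B chr1:202808422-202808671 (minus), HDAC9 chr7:18495460-18495709 (plus) and DPF2 chr11:65333602-65333851 (plus).
DPF1: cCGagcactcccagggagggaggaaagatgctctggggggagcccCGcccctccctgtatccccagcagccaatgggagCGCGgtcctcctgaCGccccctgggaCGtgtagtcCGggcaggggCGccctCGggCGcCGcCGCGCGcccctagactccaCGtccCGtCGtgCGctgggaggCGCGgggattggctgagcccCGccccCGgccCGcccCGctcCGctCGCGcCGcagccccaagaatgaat
SMARCD2: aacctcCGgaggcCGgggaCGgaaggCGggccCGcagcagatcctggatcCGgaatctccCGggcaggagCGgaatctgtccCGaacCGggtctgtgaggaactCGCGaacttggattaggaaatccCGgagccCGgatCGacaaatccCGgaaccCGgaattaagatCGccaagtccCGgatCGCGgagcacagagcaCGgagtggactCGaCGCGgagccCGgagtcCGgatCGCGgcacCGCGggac
KDM5B: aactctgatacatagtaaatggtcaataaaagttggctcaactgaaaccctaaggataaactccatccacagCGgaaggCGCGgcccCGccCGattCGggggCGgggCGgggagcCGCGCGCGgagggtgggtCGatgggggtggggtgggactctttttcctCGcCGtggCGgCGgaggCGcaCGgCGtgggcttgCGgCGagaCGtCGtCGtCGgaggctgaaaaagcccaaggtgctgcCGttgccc
HDAC9: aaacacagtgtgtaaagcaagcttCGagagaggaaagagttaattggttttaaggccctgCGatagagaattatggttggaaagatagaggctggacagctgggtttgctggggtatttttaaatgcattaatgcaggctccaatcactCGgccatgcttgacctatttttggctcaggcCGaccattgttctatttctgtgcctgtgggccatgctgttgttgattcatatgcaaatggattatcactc
DPF2: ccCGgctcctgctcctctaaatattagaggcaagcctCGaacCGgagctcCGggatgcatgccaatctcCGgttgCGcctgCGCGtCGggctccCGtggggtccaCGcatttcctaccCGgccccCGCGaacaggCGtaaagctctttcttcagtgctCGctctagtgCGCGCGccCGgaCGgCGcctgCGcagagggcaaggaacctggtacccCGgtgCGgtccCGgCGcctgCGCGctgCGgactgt
The motif searched was CG, which reads the same on both strands. The windows of DPF1, SMARCD2, KDM5B and DPF2 held 28, 31, 27 and 30 CG, and that of HDAC9 held 4. Over all 35116 windows of the RefSeq table, 93.9% held a CG, the median was 11 and the quartiles were 3 and 23. Windows with at least as many CG made up 15.9% of the table for DPF1, 10.9% for SMARCD2, 17.7% for KDM5B, 12.4% for DPF2 and 70.7% for HDAC9. SMARCD2 has 3 and HDAC9 has 5 starts in the table, and the one with the most GENCODE coding transcripts starting within 50 bases was used. A window was found for 41 of the 49 regulators, with a median of 23 CG (range 0 to 48), and the 37 that were not called had a median of 22. The counts describe the sequence only; no chromatin mark or binding was measured.

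Among the SWI/SNF subunits as a group, 19 of 20 were tested, of which SMARCD2 was called higher, DPF1 lower and 17 were not called. The called share was 10.5% of the 19, near the 10.0% of all genes tested. The median log2 fold change over the 19 was −0.06, with 5 values above 0 and 14 below, and the median was −0.05, −0.10 and −0.06 in pairs 1, 2 and 3. SMARCA4 (BRG1), the more abundant of the alternative ATPases, had 517, 429 and 472 CPM in knockdown libraries 1, 2 and 3, against 547, 468 and 519 CPM in control libraries 1, 2 and 3. Each knockdown library was below its control library, by 0.08 to 0.14 log2 units, while the groups overlapped, and the log2 fold change was −0.11 (SE 0.0613, adjusted p = 0.256 in edgeR with the block). SMARCA2 (BRM), the other ATPase, had 32.1, 41.0 and 31.8 CPM in knockdown libraries 1, 2 and 3, against 33.4, 30.5 and 29.3 CPM in control libraries 1, 2 and 3. Only knockdown library 2 stood clear of the others, and the log2 fold change was 0.17 (SE 0.112, adjusted p = 0.337 in edgeR with the block).

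Of the subunits exchanged between neural progenitor and neuronal SWI/SNF complexes, DPF1 alone was called among ACTL6A, DPF1, DPF2, DPF3 and SS18. SMARCD1 and SMARCD3, which were listed with them beforehand, were not called. ACTL6A (BAF53A), the progenitor form, had 144, 109 and 127 CPM in knockdown libraries 1, 2 and 3, against 149, 118 and 128 CPM in control libraries 1, 2 and 3, a log2 fold change of −0.06 (SE 0.0634, adjusted p = 0.564 in edgeR with the block). ACTL6B (BAF53B), the neuronal form, was near absent, with 0, 1 and 0 counts in knockdown libraries 1, 2 and 3, against 1, 1 and 0 counts in control libraries 1, 2 and 3. DPF2 (BAF45D) had 97.6, 99.6 and 101.4 CPM in knockdown libraries 1, 2 and 3, against 108, 96.1 and 105.6 CPM in control libraries 1, 2 and 3. The DPF2 groups overlapped, and its log2 fold change was −0.05 (SE 0.0694, adjusted p = 0.674 in edgeR with the block). DPF3 (BAF45C), which is also known from neuronal complexes, had 9.31, 13.4 and 8.70 CPM in knockdown libraries 1, 2 and 3, against 6.98, 9.74 and 6.64 CPM in control libraries 1, 2 and 3. Each pair differed by 0.38 to 0.45 log2 units in the direction opposite to DPF1, but the groups overlapped, and the log2 fold change of 0.42 (SE 0.156, adjusted p = 0.115 in edgeR with the block) did not pass the threshold.

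SS18, the subunit replaced in neurons, had 217, 186 and 197 CPM in knockdown libraries 1, 2 and 3, against 196, 187 and 190.3 CPM in control libraries 1, 2 and 3, with overlapping groups and a log2 fold change of 0.06 (SE 0.0638, adjusted p = 0.549 in edgeR with the block). SMARCD1 (BAF60A), a paralog of SMARCD2, had 204, 180 and 195 CPM in knockdown libraries 1, 2 and 3, against 207, 193 and 207 CPM in control libraries 1, 2 and 3, a log2 fold change of −0.07 (SE 0.0611, adjusted p = 0.464 in edgeR with the block). SMARCD3 (BAF60C), the remaining paralog, had 38.9, 41.2 and 33.5 CPM in knockdown libraries 1, 2 and 3, against 38.4, 45.1 and 34.5 CPM in control libraries 1, 2 and 3, a log2 fold change of −0.06 (SE 0.0868, adjusted p = 0.714 in edgeR with the block). SMARCD1, SMARCD2 and SMARCD3 all overlapped between groups. The log2 ratio of SMARCD1 to SMARCD3 was among the paralog ratios tested below (exact permutation p = 0.8). No test of SMARCD2 against either paralog was run. SMARCD3 shares 64 exonic bases with CHPF2 and ACTL6A shares 124 with MRPL47, each on the opposite strand. Larger overlaps on the opposite strand were found for SMARCB1 with DERL3 (2923 bases), SMARCC2 with MYL6 (514) and ASH2L with STAR (338). MYL6 had more counts than SMARCC2 in every library. Some further regulators, KDM5A with CCDC77 (182 bases) among them, also share exonic bases with another gene. The libraries were made with a directional kit, but whether strand was used in counting is not given in the sources used here.

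Among the subunits named after their values were seen, SMARCC1 (BAF155), a scaffold of the complex, had 436, 311 and 356 CPM in knockdown libraries 1, 2 and 3, against 469, 398 and 399 CPM in control libraries 1, 2 and 3. Its log2 fold change was −0.21 (SE 0.0704, adjusted p = 0.0939 in edgeR with the block). ARID1B, a DNA-binding subunit, differed by −0.16, −0.14 and −0.14 log2 units in pairs 1, 2 and 3, the most even set of pair differences among the subunits described, with a fitted value of −0.15 (SE 0.0623, adjusted p = 0.158 in edgeR with the block). The other core and accessory subunits (SMARCB1, SMARCC2, SMARCE1, ARID1A, ARID2, PBRM1 and BCL7A) had log2 fold changes of −0.10 to 0.11, and none was called.

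The ratios within the BAF45 and BAF60 families were computed after these values had been seen, as a description and with no test. The log2 ratio of DPF1 to DPF2 CPM was −2.92, −3.17 and −3.14 in knockdown libraries 1, 2 and 3, against −2.51, −2.05 and −2.62 in control libraries 1, 2 and 3. The ratio of DPF3 to DPF2 shifted the other way, at −3.35, −2.87 and −3.50 in knockdown libraries 1, 2 and 3, against −3.90, −3.26 and −3.93 in control libraries 1, 2 and 3. The log2 ratio of SMARCD2 to SMARCD1 was −2.22, −1.23 and −1.80 in knockdown libraries 1, 2 and 3, against −2.46, −2.03 and −2.30 in control libraries 1, 2 and 3. DPF1 and DPF3 were thus the low members of their family in every library, whichever way they shifted. Beside the DPF1 values, 2 of 8 tested neuron markers were called lower in the fit with the block (5.39% of all genes) and 0 higher (4.63% of all genes), ELAVL3 at −0.96 (adjusted p = 0.0256) and NEFM at −0.89 (adjusted p = 0.0305), by edgeR. Fitted log2 fold changes of the 8 were below 0 for 5 and above 0 for 3, namely SYT1 at 0.29 (adjusted p = 0.0608), MAP2 at 0.15 (adjusted p = 0.164) and SNAP25 at 0.15 (adjusted p = 0.664), by edgeR. The part of neuronal transcripts in the DPF1 difference was not tested. In bulk RNA, fewer cells of a kind and less RNA per cell cannot be told apart.

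Levels were compared between genes per length, as TPM, the counts divided by length and scaled to the same sum in every library, with the longest coding transcript of each gene. CHD4, the NuRD ATPase, was the most abundant of the 49, at 276 ± 18.1 TPM in knockdown and 291 ± 27.9 TPM in control cells (SD, n = 3 each). KDM1A (LSD1), an H3K4 demethylase of the CoREST complex, followed at 268.8 TPM in knockdown and 278 TPM in control cells, and SMARCA4 at 248 ± 12.9 TPM in knockdown and 271 ± 16.7 TPM in control cells. At the low end above ACTL6B stood DPF3 at 7.10 TPM in knockdown and 5.31 TPM in control cells, and KAT2B at 5.77 TPM in knockdown and 5.97 TPM in control cells. HDAC9 followed at 12.2 TPM in knockdown and 9.0 TPM in control cells. The places of DPF3 and HDAC9 depend on the length used: with the principal transcript in place of the longest, DPF3 was at 26.1 TPM in knockdown and 19.5 TPM in control cells and HDAC9 at 34.2 TPM in knockdown and 25.2 TPM in control cells, above SETD1B, KMT2C, SMARCA2 and KAT2B in control cells. The ATPase SMARCA4 exceeded SMARCA2 16.4-fold in knockdown and 20.1-fold in control cells, DPF2 exceeded DPF1 7.27-fold in knockdown and 4.44-fold in control cells, and SMARCD1 exceeded SMARCD2 2.41-fold in knockdown and 3.57-fold in control cells. With the principal transcript, DPF2 exceeded DPF1 5.04-fold in knockdown and 3.08-fold in control cells.

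**Figure D3:**
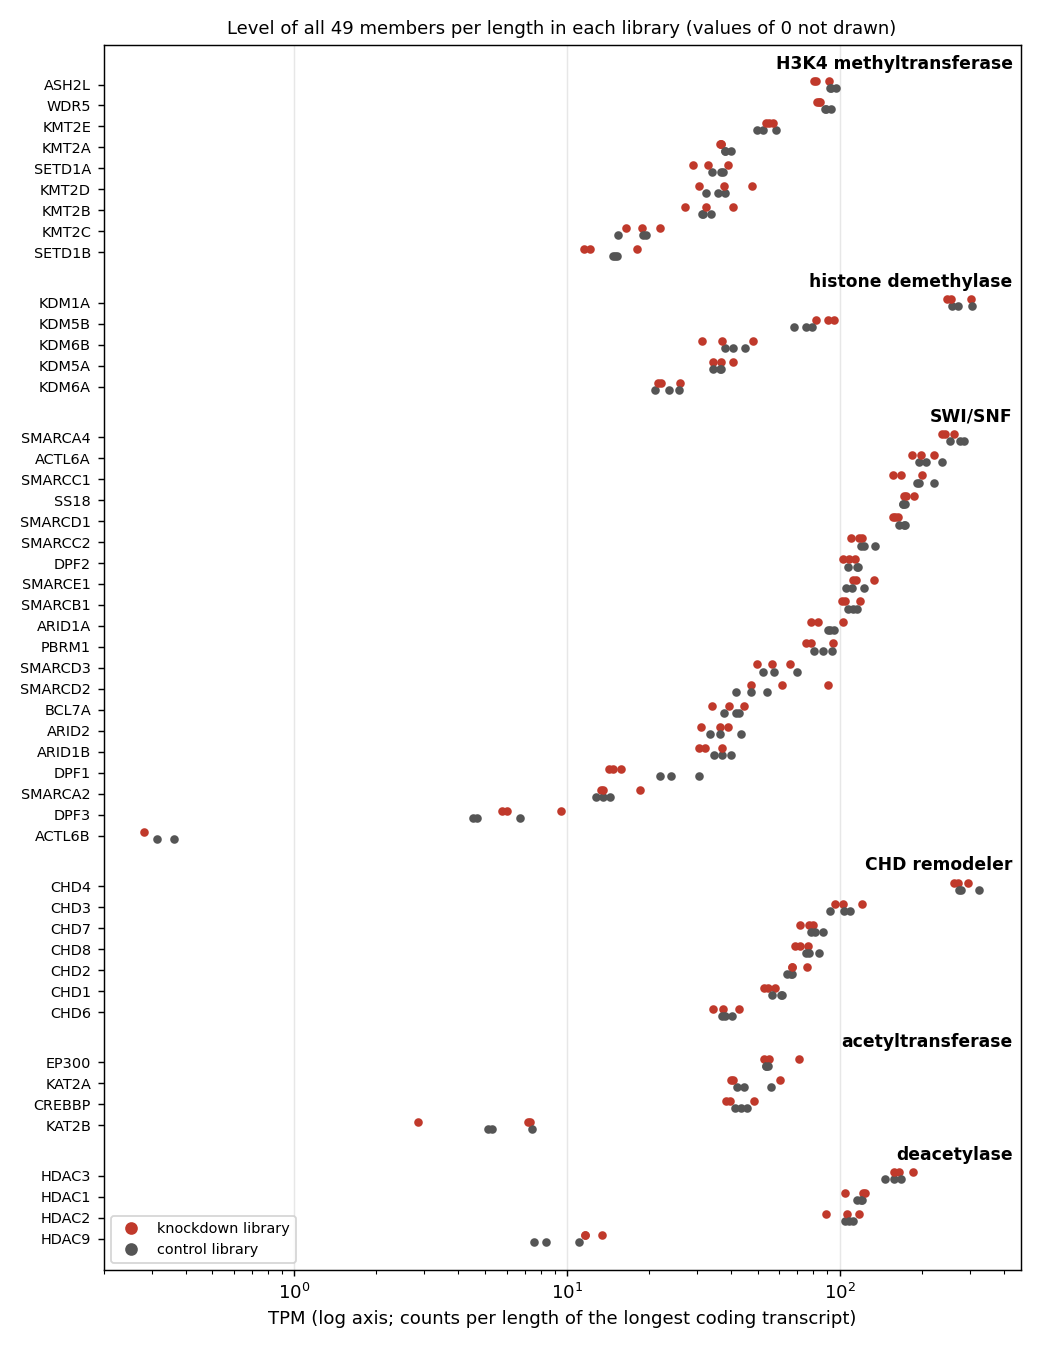
Level of each of the 49 regulators in TPM (log axis, counts per length of the longest coding transcript) in each knockdown (red) and control (grey) library, grouped by complex and ordered by control level; values of 0 are not drawn. Levels run from below 1 TPM for ACTL6B to CHD4 at 276 TPM in knockdown and 291 TPM in control cells, and for most genes the red and grey points overlap.

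None of the 9 H3K4 methyltransferase genes was called in edgeR with the block, against 10.0% of all genes. An unadjusted p under 0.05 was found for 0 of 9, against 28.7% of all genes. With the block, limma voom called 0 of 9 (10.7% of all genes) and DESeq2 0 of 9 (4.56% of all genes). The median log2 fold change of the 9 was −0.06 (range −0.14 to 0.13), and the pair medians were −0.05, 0.09 and −0.02. ASH2L is a core subunit shared by the KMT2A to KMT2D and SETD1 complexes. It had 95.7, 77.3 and 84.5 CPM in knockdown libraries 1, 2 and 3, against 98.7, 91.3 and 92.9 CPM in control libraries 1, 2 and 3. Every knockdown library was below the control library of its number, and the log2 fold change was −0.14 (SE 0.0703, adjusted p = 0.222 in edgeR with the block). WDR5, the core subunit that binds the H3 tail and is named here after its values were seen, had 90.2, 80.8 and 89.5 CPM in knockdown libraries 1, 2 and 3, against 92.8, 93.2 and 90.7 CPM in control libraries 1, 2 and 3. The WDR5 groups did not overlap, but by a narrow margin, and the log2 fold change was −0.09 (adjusted p = 0.443 in edgeR with the block).

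KMT2D, an enhancer H3K4 monomethyltransferase, had 202, 289 and 244 CPM in knockdown libraries 1, 2 and 3, against 208, 235 and 226 CPM in control libraries 1, 2 and 3. It was lower in pair 1 by 0.05 log2 units and higher in pairs 2 and 3 by 0.30 and 0.11, a log2 fold change of 0.13 (SE 0.0764, adjusted p = 0.312 in edgeR with the block). SETD1B and KMT2B, named after their values were seen, changed sign between pairs: SETD1B differed by −0.31, 0.23 and −0.29 log2 units and KMT2B by −0.16, 0.34 and −0.02 in pairs 1, 2 and 3. KMT2A (MLL1) stayed within −0.09 and −0.01 in the 3 pairs, and KMT2C and KMT2E had fitted log2 fold changes of 0.10 and 0.07.

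Of the 5 demethylases, KDM5B was called higher (4.63% of all genes) and none lower (5.39% of all genes). KDM5A, its paralog with the same substrate, had 134, 137 and 124 CPM in knockdown libraries 1, 2 and 3, against 130.3, 125 and 120.3 CPM in control libraries 1, 2 and 3, overlapping groups with a log2 fold change of 0.07 (SE 0.0635, adjusted p = 0.506 in edgeR with the block). KDM6A (UTX) and KDM6B (JMJD3), named after their values were seen, remove the H3K27 methylation set by Polycomb repressive complex 2, and were lower in pairs 1 and 3 and higher in pair 2. KDM6A differed by −0.06, 0.27 and −0.22 log2 units and KDM6B by −0.24, 0.22 and −0.24 in pairs 1, 2 and 3. Their fitted log2 fold changes were −0.0048 for KDM6A and −0.08 for KDM6B, and KDM1A had −0.04.

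All 7 CHD remodellers stayed within 0.25 log2 units of 0 in every pair, as did 38.1% of all genes tested. In edgeR with the block 0 of 7 were called, against 10.0% of all genes. An unadjusted p under 0.05 was found for 0 of 7, against 28.7% of all genes. With the block, limma voom called 0 of 7 (10.7% of all genes) and DESeq2 0 of 7 (4.56% of all genes). Log2 fold changes of the 7 ran from −0.11 to 0.10 with a median of −0.06. CHD8, a remodeller linked to autism and to WNT signalling, had 221, 189 and 194 CPM in knockdown libraries 1, 2 and 3, against 235, 209 and 207 CPM in control libraries 1, 2 and 3. It was lower in each pair by 0.09 to 0.14 log2 units, with overlapping groups and a log2 fold change of −0.11 (SE 0.0604, adjusted p = 0.275 in edgeR with the block). CHD2, which is linked to epileptic encephalopathy, had 212, 222 and 210.0 CPM in knockdown libraries 1, 2 and 3, against 206, 199 and 194 CPM in control libraries 1, 2 and 3. All knockdown libraries were above all control libraries, with a log2 fold change of 0.10 (SE 0.0618, adjusted p = 0.299 in edgeR with the block). CHD4 differed by −0.08, −0.07 and −0.02 log2 units in pairs 1, 2 and 3.

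Of the 4 acetyltransferases 0 were called in edgeR with the block, against 10.0% of all genes. An unadjusted p under 0.05 was found for 0 of 4, against 28.7% of all genes. With the block, limma voom called 0 of 4 (10.7% of all genes) and DESeq2 0 of 4 (4.56% of all genes). EP300 (p300), a transcriptional coactivator that acetylates H3K27 at enhancers, had 172, 213 and 176 CPM in knockdown libraries 1, 2 and 3, against 170.3, 164 and 170.4 CPM in control libraries 1, 2 and 3. The groups did not overlap, but pairs 1 and 3 differed by only 0.01 and 0.04 log2 units and pair 2 by 0.38, for a log2 fold change of 0.15 (SE 0.0823, adjusted p = 0.276 in edgeR with the block). CREBBP (CBP), its paralog, had 141, 163 and 143 CPM in knockdown libraries 1, 2 and 3, against 163, 150 and 145 CPM in control libraries 1, 2 and 3, and changed sign between pairs, with a log2 fold change of −0.03 (SE 0.0767, adjusted p = 0.815 in edgeR with the block). KAT2B (PCAF), a coactivator acetyltransferase named here after its values were seen, rested on 44 to 80 counts in knockdown and 53 to 65 counts in control libraries, and its pair differences of 0.01, 0.39 and −0.77 log2 units were the most scattered of the acetyltransferases.

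Of the 4 deacetylases, HDAC9 was called higher (4.63% of all genes) and none lower (5.39% of all genes). HDAC3, the catalytic subunit of NCOR complexes, had 124, 101 and 103 CPM in knockdown libraries 1, 2 and 3, against 103, 91.8 and 107 CPM in control libraries 1, 2 and 3. The groups overlapped, with a log2 fold change of 0.11 (SE 0.0774, adjusted p = 0.364 in edgeR with the block). HDAC1 and HDAC2, the NuRD and SIN3 deacetylases, had log2 fold changes of −0.02 and −0.04, and HDAC2 was lower in pair 2 by 0.26 log2 units and higher in pairs 1 and 3.

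Ratios of 2 paralogs within a library do not depend on how libraries are scaled. Of 15 listed ratios 14 could be tested, ACTL6A to ACTL6B being left out for its counts, and 3 libraries against 3 cannot give an exact two-sided permutation p below 0.1. The log2 ratio of EP300 to CREBBP was the only one whose groups did not overlap, at 0.32 ± 0.053 in knockdown and 0.14 ± 0.084 in control cells (SD, n = 3 each; exact permutation p = 0.1, adjusted p = 0.84 over 14 ratios). It was higher in each pair, by 0.22, 0.25 and 0.07. The log2 ratio of SMARCA4 to SMARCA2 was 3.75 ± 0.328 in knockdown and 4.03 ± 0.103 in control cells (exact permutation p = 0.2, adjusted p = 0.84, n = 3 each), lower by 0.02 in pair 1, 0.55 in pair 2 and 0.26 in pair 3. The log2 ratio of KDM5A to KDM5B averaged −1.20 in knockdown and −0.99 in control cells (exact permutation p = 0.2, adjusted p = 0.84, n = 3 each). The other 11 ratios differed by −0.11 to 0.14 log2 units, and the smallest adjusted p over all 14 was 0.84.

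**Figure D4:**
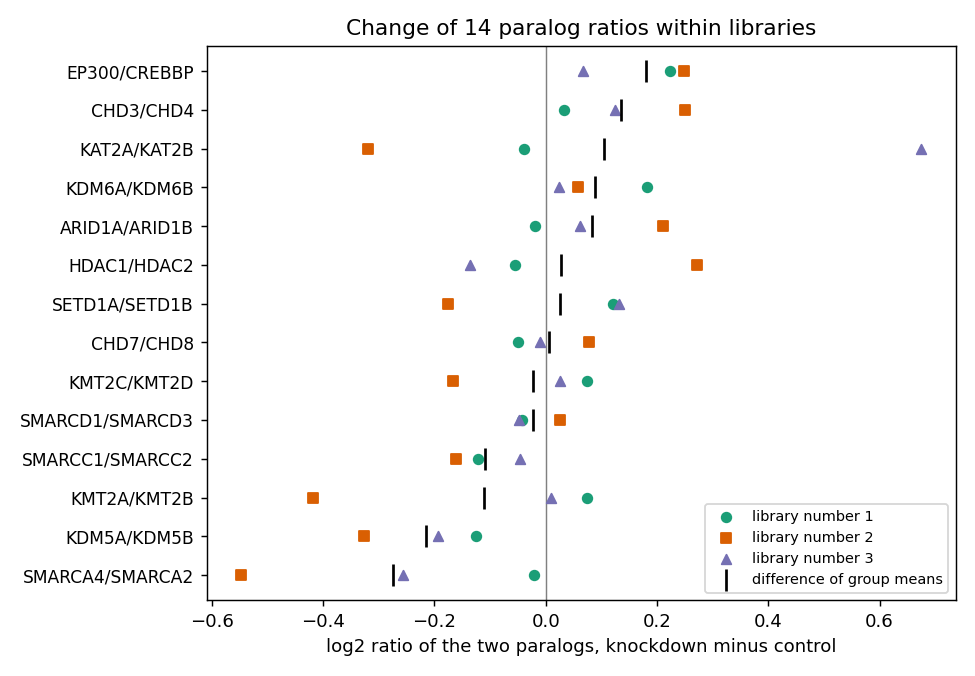
Difference, knockdown minus control, of the log2 CPM ratio within each of 14 paralog pairs (rows), for libraries numbered 1 (circles), 2 (squares) and 3 (triangles), with the difference of the group means (black bars). EP300 relative to CREBBP, CHD3 relative to CHD4 and KDM6A relative to KDM6B lie to the right of 0 in all 3 pairs. SMARCA4 relative to SMARCA2, KDM5A relative to KDM5B and SMARCC1 relative to SMARCC2 lie to the left in all 3. In many rows pair 2 lies apart from the others.

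One pattern across the 48 was noticed after the pair values had been seen and is given as a description. In 12 of 48 regulators the knockdown library was higher in pair 2 and lower in pairs 1 and 3, against 6.94% of all genes tested. They were KMT2B, SETD1A, SETD1B, KDM6A, KDM6B, ARID1A, ARID2, DPF2, BCL7A, CHD6, CREBBP and KAT2A. The opposite pattern occurred in SS18 and HDAC2, against 8.0% of all genes. Of the 12, 9 were among the 24 regulators whose longest coding transcript had a GC content above the median of the 48, 50.1%, and 3 among the other 24. Among all genes with a GC content above the same value 8.11% had the pattern, and 5.97% of those at or below it. Across the 48 genes the Pearson correlation of GC content with the log2 difference was −0.438, −0.051 and −0.240 in pairs 1, 2 and 3, against −0.065, 0.012 and 0.026 over 12692 genes; the genes of a pair share both libraries and are not independent. Pair 2 holds the knockdown library that stood apart on the first principal component and had the lowest cell-cycle sum, and its part in the pattern was not tested. Without pair 2 the fit called 7 of 48, against 17.9% of all genes, adding SETD1B at −0.30 (SE 0.102, adjusted p = 0.0225), KDM6B at −0.24 (SE 0.0711, adjusted p = 0.00579) and SMARCC1 at −0.14 (SE 0.0463, adjusted p = 0.0215), all by edgeR, to the 4 called with all libraries. Its p-values equal those of a normal distribution, so they do not count how uncertain a spread estimated from 2 libraries per group is. The same limit holds for every other call without pair 2, those of DPF1 and SMARCD2 included.

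**Figure D5:**
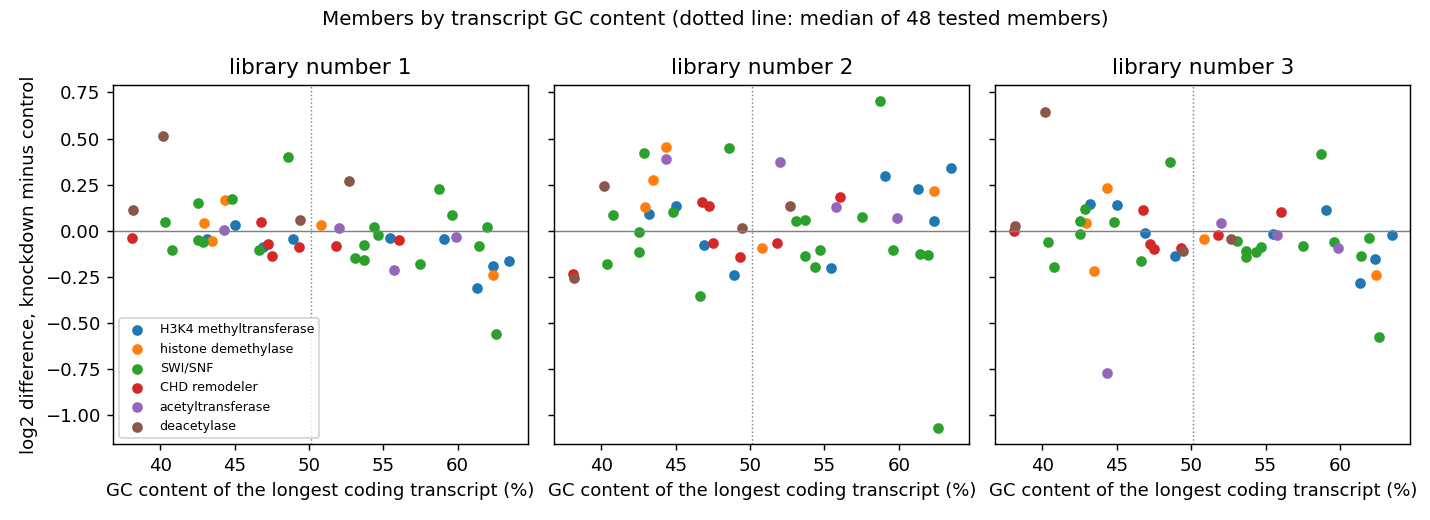
Log2 difference, knockdown minus control, of the 48 tested regulators against the GC content (%) of the longest coding transcript, one panel per library number, coloured by complex; the dotted line marks the median GC content, 50.1%. At the high-GC end KMT2B, SETD1A, SETD1B and KDM6B lie below 0 in panels 1 and 3 and above 0 in panel 2, while SMARCA4 and DPF1 lie below 0 and SMARCD2 above 0 in all 3 panels.

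The wider list of 85 chromatin genes held other subunits of the same complexes and other enzymes of the same families, and 82 were tested; BCL11A, BCL11B and CHD5 did not pass the low-count filter. In edgeR with the block 2 rose and 3 fell, 6.10% of the 82, against 10.0% of all genes tested. MBD2, a methyl-CG-binding subunit of NuRD, had 50.5, 58.5 and 57.3 CPM in knockdown libraries 1, 2 and 3, against 39.5, 44.8 and 43.6 CPM in control libraries 1, 2 and 3, with no overlap and a log2 fold change of 0.38 (SE 0.0786, adjusted p = 0.0282 in edgeR with the block). GATAD2B, another NuRD subunit, went the other way, with 59.1, 55.4 and 50.4 CPM in knockdown libraries 1, 2 and 3, against 82.0, 64.3 and 67.7 CPM in control libraries 1, 2 and 3 and a log2 fold change of −0.37 (SE 0.0818, adjusted p = 0.0324 in edgeR with the block). Neither was called in DESeq2 with the block or without pair 3, and GATAD2B was not called without pair 1.

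Among the other class IIa deacetylases, relatives of HDAC9, HDAC5 rose and HDAC7 fell. HDAC4, named after its values were seen, was not called, at −0.21 (SE 0.0949, adjusted p = 0.182 in edgeR with the block). HDAC4 was lower in each pair, and its knockdown libraries lay below all control libraries (11.2% of all genes). HDAC5 had 94.5, 112 and 75.9 CPM in knockdown libraries 1, 2 and 3, against 79.4, 80.1 and 61.2 CPM in control libraries 1, 2 and 3, overlapping between groups but higher in each pair, with a log2 fold change of 0.35 (SE 0.0743, adjusted p = 0.0292 in edgeR with the block). HDAC7 had 157, 149 and 169 CPM in knockdown libraries 1, 2 and 3, against 179, 193 and 210 CPM in control libraries 1, 2 and 3, with no overlap and a log2 fold change of −0.29 (SE 0.0655, adjusted p = 0.0327 in edgeR with the block). PSIP1 (LEDGF), which tethers KMT2A complexes to chromatin, had 237, 125 and 164 CPM in knockdown libraries 1, 2 and 3, against 269, 236 and 218 CPM in control libraries 1, 2 and 3. Its log2 fold change was −0.50 (SE 0.120, adjusted p = 0.0392 in edgeR with the block), knockdown library 2 was the lowest of the 6, and the value was −0.30 without pair 2. The HDAC5 and HDAC7 calls were lost in DESeq2 with the block and without pair 3. PHF10 and SS18L1, the remaining progenitor and neuronal partners in the subunit exchange, were not called, at −0.10 (adjusted p = 0.408) and 0.07 (adjusted p = 0.605) by edgeR with the block. Exonic bases on the opposite strand are shared by PSIP1 with SNAPC3 (140 bases) and by HDAC7 with SLC48A1 (32 bases).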

How the data were processed

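Total RNA of AF22 cells was made into directional libraries, per the labels' protocols. The authors deposited raw counts per gene symbol, with a table for each library. The submitters' processing notes name hg38, STAR 2.7.10a, Trim Galore 0.6.6 and bedtools; which annotation and strand setting the counting used was not stated in them or in the labels. Depth was 4962745 to 9640349 counts per library, and replicate libraries all differed by more than counting error.

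Counts were tested with edgeR 4.0.16 in R 4.3.3 (TMM scaling, filterByExpr, quasi-likelihood test, Benjamini-Hochberg over 12937 genes, threshold 0.05), without and with library number as a block; the standard error is the size of the log2 fold change divided by the square root of F. DESeq2 1.42.0 and limma voom 3.58.1 were alternatives, beside other scalings and filters, removal of a GC and length trend (98.1% of tested genes had both values), thinning to the smallest total and leaving out libraries. The numbers were taken to pair libraries because same-numbered deviations correlated at 0.563, 0.467 and 0.535. Those of different numbers correlated at −0.342 to −0.107. Deviations from a group mean cancel out within the group, so these negative values follow from the positive ones and are not separate evidence. Total counts also rose with library number in both groups, and the labels do not say what a number marks. Pair differences use log2 CPM with a prior count of 2. Lengths, GC content and coordinates come from GENCODE 29, promoter windows from RefSeq (GRCh38.p14). Scripts were tested on simulated counts.

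The members and lists were chosen with earlier results of these data known. Named were members called in either fit, the 2 of smallest p in each of the 6 groups, and the 2 of largest fold change. Also named were the exchanged SWI/SNF subunits with SMARCD1 and SMARCD3, the ATPases, BMI1, members under the filter, and called genes of the wider list. Any other gene named was added after its values were seen.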

Additional observations from a re-analysis of the deposited data

How the results depend on the processing

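Whether library number enters as a block decides most counts. Without the block 0 regulators and 0 of all genes were called, and with the replicate block 4 regulators, 1296 of all genes and 5 of the wider chromatin list. Leaving out single libraries without the block gave 0 to 1 regulators (DPF1, without knockdown library 1, adjusted p = 0.0465 by edgeR) and 0 to 665 of all genes, the 665 again without knockdown library 1. Other settings without the block gave 2 of all genes with no low-count filter and 142 in DESeq2.

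With the block, the regulators called numbered 1 in DESeq2 and 2 to 7 without single pairs (2 without pair 1, 7 without pair 2, 2 without pair 3), and the wider list 10 with no low-count filter, 1 in DESeq2 and 1 to 13 without single pairs (13 without pair 2, 1 without pair 3). DPF1 kept its call in all blocked alternatives. Removing the GC and length trend left 4 regulators called, and thinning to the smallest total left 3, with SMARCD2 at an adjusted p of 0.0606 by edgeR.

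Directions turned for some uncalled genes. Leaving out single libraries, ACTL6A ranged from −0.15 to 0.038, with 0.033 without knockdown library 2, CREBBP from −0.10 to 0.021, with 0.0082 without knockdown library 1, and SMARCD3 from −0.15 to 0.053, with 0.028 without knockdown library 3. In the blocked fit CREBBP ranged from −0.11 to 0.055 without single pairs and was 0.0041 after thinning, where DPF2 was 0.0058. Paralog ratios whose groups did not overlap numbered 1 with all libraries and 1 to 4 without single libraries, where fewer libraries separate more easily. The cause of the other changes was not tested. DPF3 and KAT2B rest on 38 to 99 counts per library, which limits their precision.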
